A study of Mus musculus with 16 samples.

Results

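Matrix metalloproteinases (Mmp) and their tissue inhibitors (Timp) were followed in cortical bone as 10 genes chosen by symbol: Mmp2, Mmp3, Mmp11, Mmp13, Mmp14, Mmp16, Timp1, Timp2, Timp3 and Timp4. All 10 were listed among 36829 features, and all 10 passed the filter of a mean of at least 0.5 RPKM that left 16973 features for testing. RNA came from the femoral cortex of 16 female C57Bl/6 mice (C57Bl/6J in the study's methods) aged 11 weeks. In 8 mice the hindlimbs had been lifted off the ground by a tail harness, fitted under isoflurane, for 7 days (hindlimb unloading, HLU), and 8 control mice bore weight normally. The ends of the bones had been cut off and the marrow flushed out, and each mouse gave its own library. Transcript abundance is given as RPKM, that is, reads scaled by gene length and by the size of the library. A comparison of levels between genes rests on the lengths used, which were recovered from the values. For some members they differ from the annotated exon lengths on GRCm38. They were 1416 against 5894 bases for Timp4, 2597 against 5960 for Mmp14 and 1384 against 888 for Timp1. For Mmp13 they were 2675 against 2673 bases.

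Mmps are zinc endopeptidases, secreted or held in the cell membrane, that are made as inactive proenzymes and cleave collagens, proteoglycans and other matrix proteins. Timps bind the active site of Mmps and block it, and Timp2 also takes part in the activation of pro-Mmp2 by Mmp14 at the cell surface. In bone, osteoblasts, osteocytes, osteoclasts and hypertrophic chondrocytes make members of both families, and Mmp13 and Mmp14 are known for their part in turning over the collagen of bone.

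The libraries had been scaled to between 7067512 reads (Control 2) and 21363584 reads (HLU 6). The share of these reads that fell outside the listed features ran from 6.75% to 23.7%, with 11.2% ± 4.28 (SD, n = 8) in controls and 15.03% ± 5.29 (n = 8) in HLU mice (exact permutation test, two-sided, p = 0.133). HLU 7, HLU 6, Control 5 and HLU 1 had the highest shares. All 6 osteocyte markers and all 7 osteoblast markers examined were detected in every mouse of the cortical bone samples. Granulocyte transcripts were also abundant after flushing, with 7 of 10 markers listed and a summed level of 17544 to 37581 RPKM in controls and 12346 to 44250 RPKM in HLU mice. In bulk RNA of this kind, fewer cells of a type and less RNA per cell cannot be told apart.

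The bases upstream of the annotated start are shown for Mmp13 and Mmp3, which lie near each other on chromosome 9, and for Mmp14 and Timp1, whose levels rose and fell together from mouse to mouse. RefSeq entries on GRCm38.p6 were found for 8 of the 10 genes (all but Mmp2 and Mmp16), and each run below is the 250 bases before the start, 5′ to 3′, on the strand of the gene. Capitals mark matches to the AP-1 motif TGANTCA, the RUNX motif TGTGGT or its reverse complement ACCACA, and the TATA box TATAAA on the strand of the gene.
Mmp13, chr9:7272264-7272513, plus strand: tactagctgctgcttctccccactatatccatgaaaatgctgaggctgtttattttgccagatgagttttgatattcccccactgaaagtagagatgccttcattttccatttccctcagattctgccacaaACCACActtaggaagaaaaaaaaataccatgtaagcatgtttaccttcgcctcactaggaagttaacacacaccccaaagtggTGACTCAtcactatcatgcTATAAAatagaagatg
Mmp3, chr9:7445572-7445821, plus strand: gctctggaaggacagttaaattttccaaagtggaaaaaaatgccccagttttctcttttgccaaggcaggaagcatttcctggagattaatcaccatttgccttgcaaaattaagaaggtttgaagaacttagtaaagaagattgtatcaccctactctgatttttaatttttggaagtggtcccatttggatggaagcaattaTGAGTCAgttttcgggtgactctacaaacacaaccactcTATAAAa
Mmp14, chr14:54431348-54431597, plus strand: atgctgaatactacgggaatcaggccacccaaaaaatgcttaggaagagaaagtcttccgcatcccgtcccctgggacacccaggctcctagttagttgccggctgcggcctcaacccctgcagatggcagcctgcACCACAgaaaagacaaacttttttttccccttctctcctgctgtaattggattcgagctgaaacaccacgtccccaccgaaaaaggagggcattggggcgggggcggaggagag
Timp1, chrX:20869916-20870165, plus strand: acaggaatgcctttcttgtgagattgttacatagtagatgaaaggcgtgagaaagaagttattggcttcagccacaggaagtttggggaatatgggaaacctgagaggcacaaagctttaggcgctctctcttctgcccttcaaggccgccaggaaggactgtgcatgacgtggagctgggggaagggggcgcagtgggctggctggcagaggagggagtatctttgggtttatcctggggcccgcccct

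The windows of Mmp13 and Mmp3 each held an AP-1 match, TGACTCA at -35 to -29 and TGAGTCA at -46 to -40 from the start. Such a match was present in 6.75% of 32851 windows of this length. The same pair of windows held the letters TATAAA, at -16 to -11 in Mmp13 and at -7 to -2 in Mmp3. This match was in 7.59% of windows. All positions count from the annotated start, which was not checked against these data. Mmp13 and Mmp14 each had 1 RUNX match, a motif found in 14% of windows. No member window held CCGGAA, 1 form of the ETS motif, on either strand, and 12% of all windows did. Other forms of the ETS motif, such as those with only the shorter core GGAA, were not searched. Mmp13 and Mmp3 windows were low in G and C, at 40.4% and 37.6%, against 55.2% for Mmp14, 54.4% for Timp1 and a median of 52.4% over all windows. These matches describe the letters of the windows and say nothing of what bound there.

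Mmp13, which encodes a collagenase that cleaves fibrillar collagen, was the most abundant of the 10 transcripts in every mouse. Over the 16 mice the mean levels were 387 RPKM for Mmp13, 86.3 for Timp2, 67.5 for Mmp2, 50.2 for Timp3, 44.5 for Mmp14, 27.2 for Timp1 and 12.4 for Timp4. Below these came Mmp11 at 2.54 RPKM, Mmp16 at 1.08 RPKM and Mmp3 at 0.612 RPKM. Mmp13 exceeded Timp2, Timp2 exceeded Mmp2 and Mmp14 exceeded Timp1 in 16 of 16 mice. The order holds for the gene lengths in the deposited RPKM and was not examined with annotated lengths. Neighbours that were not separated in every mouse were Mmp2 over Timp3 (11 of 16), Timp3 over Mmp14 (11 of 16), Timp1 over Timp4 (15 of 16) and Mmp16 over Mmp3 (15 of 16).

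**Figure D1:**
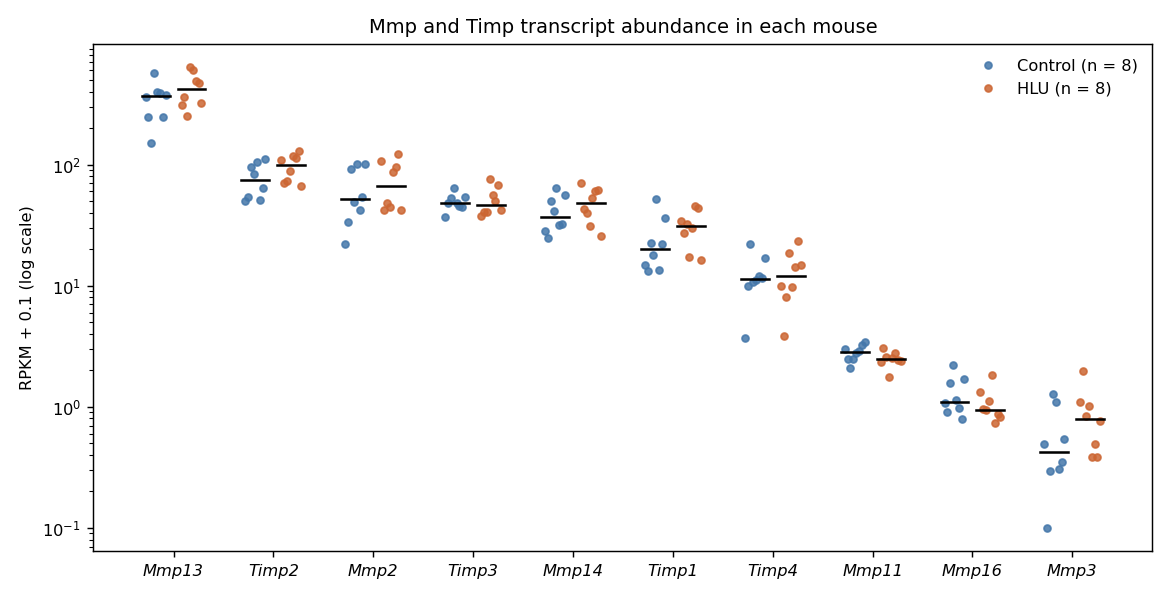
RPKM plus 0.1 on a log scale for each of the 10 genes, with 1 point per mouse, controls in blue and HLU mice in orange, and a black bar at the median of each group. Mmp13 lies between 150 and 638 RPKM in all 16 mice, and the points of the groups overlap for every gene.

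None of the 10 genes passed the threshold used for all features (limma, unadjusted p under 0.05 with at least 1.2-fold) between HLU and control mice. Of 16973 features, 1.11% were called higher and 4.76% lower in HLU mice at that threshold, against 0 of 10 members in either direction. No member had an unadjusted p under 0.05, and their adjusted p-values (Benjamini-Hochberg over all features, limma) ran from 0.746 to 0.978. At an adjusted p under 0.1 no feature of the whole table passed with limma, where 1049 had an unadjusted p under 0.05 and the lowest adjusted p was 0.256. The fitted log2 change was above 0 for 8 of 10 members, with a median of 0.26, while 32.1% of all features were above 0 and their median was -0.10. After rescaling the libraries by the median of ratios the median of all features moved to -0.01, that of the members was 0.35, and 8 of 10 members were again above 0 against 47.5% of all features. With that rescaling 2.24% of features were called higher and 0 members. The counts of members above 0 were not tested. Mmp2, Mmp14, Timp1 and Timp2 rose and fell together between mice, so the 10 genes are not independent observations.

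**Figure D2:**
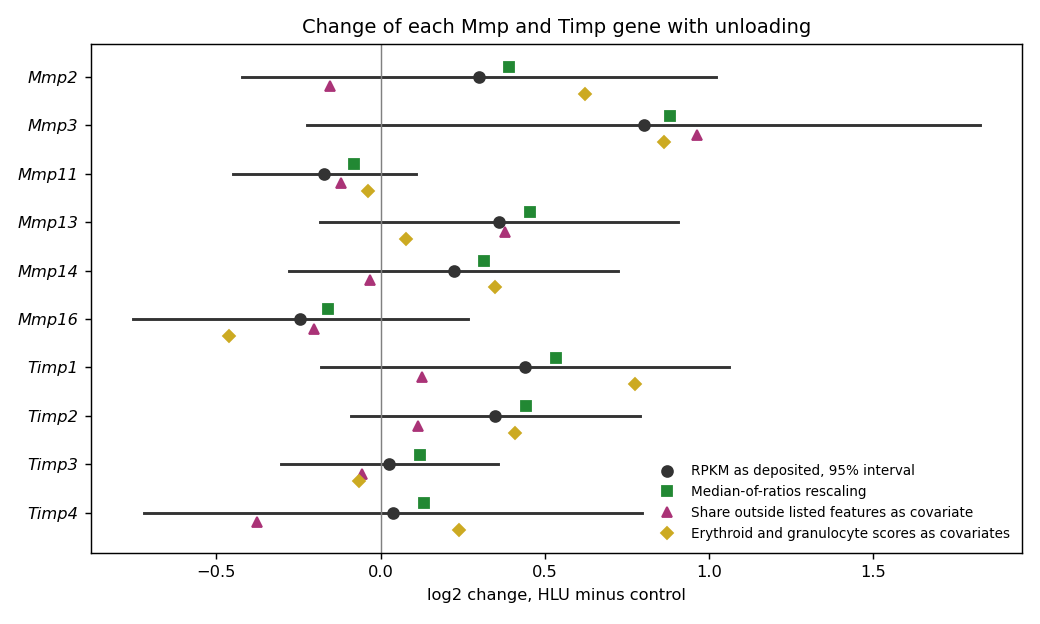
Log2 change of each gene, HLU minus control, with the 95% interval from limma as a line around the value on the deposited RPKM (circle), beside the value after median-of-ratios rescaling (square), with the share of unlisted reads as a covariate (triangle) and with the erythroid and granulocyte scores as covariates (diamond). All 10 intervals cross 0, and the triangles of Mmp2, Mmp14, Timp3 and Timp4 lie below 0 where their circles lie above it.

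Among the secreted collagenase and stromelysin, Mmp13 (chromosome 9, 7272514 to 7283331, GRCm38, plus strand) had a lowest, median and highest level of 150, 367 and 570 RPKM in controls and 250, 418 and 638 RPKM in HLU mice. The means were 343 ± 128 RPKM (SD, n = 8) and 432 ± 143 RPKM (n = 8), a log2 change of 0.36 (SE 0.26, exact permutation p = 0.202). Without Control 3 this change was 0.20. Its highest values belonged to HLU 4 and HLU 5, its lowest to Control 3, and the control median was exceeded by 4 of 8 HLU mice. Mmp3, a stromelysin that cleaves proteoglycans and activates other proenzymes, lay 162490 bases beyond Mmp13 (chromosome 9, 7445822 to 7455975, GRCm38, plus strand) and was barely detected. It had 0 to 55 reads per mouse and a lowest, median and highest level of 0, 0.322 and 1.16 RPKM in controls and 0.284, 0.697 and 1.86 RPKM in HLU mice. Control 2, the shallowest library, had 0 reads on Mmp3, which allows up to 0.236 RPKM. The fitted log2 change of Mmp3 was 0.80 (SE 0.49, exact permutation p = 0.133, n = 8 per group). Its 95% interval was the widest of the 10, at -0.22 to 1.82, and its size depended on the value added before taking logs. With 1 RPKM added in place of 0.1 it was 0.28, below Timp1, Mmp13, Timp2 and Mmp2, and with 0.01 RPKM added it was 1.28. Without Control 4, the control with the highest Mmp3, the change was 1.02 and passed the threshold, which 1.28% of all features then passed upward.

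The chromosome 9 run of Mmp genes held 10 listed members of the family over 427072 bases, and their levels differed greatly. Mmp13 and Mmp8 averaged 387 and 219 RPKM, while the other 8 averaged under 1 RPKM, Mmp3 among them. Mmp8 encodes the collagenase of neutrophil granules.

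Mmp2, the gelatinase that cleaves denatured collagen and type IV collagen (chromosome 8, 92827291 to 92853420, GRCm38), ranged from 21.8 through a median of 51.5 to 101 RPKM in controls and from 41.8 through 66.7 to 123 RPKM in HLU mice. The means were 61.8 ± 31.6 and 73.3 ± 33.1 RPKM (SD, n = 8 each), a log2 change of 0.30 (SE 0.34, exact permutation p = 0.433). Without Control 1, which had the lowest level, it was 0.11. No mouse lay between 54.3 and 85.9 RPKM. The 7 mice above this gap were Control 3, 5 and 8 and HLU 1, 5, 6 and 7, so that both sides of the gap held mice of both groups.

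Mmp14, the membrane-type collagenase that also activates pro-Mmp2 (chromosome 14, 54431612 to 54445364, GRCm38), ran from 24.7 through a median of 36.9 to 63.9 RPKM in controls and from 25.8 through 47.6 to 69.6 RPKM in HLU mice. Its means of 41.1 ± 14.4 and 47.9 ± 15.6 RPKM (SD, n = 8 each) gave a log2 change of 0.22 (SE 0.24, exact permutation p = 0.381). The 7 highest values belonged to the same 7 mice as for Mmp2. Mmp16, another membrane-type Mmp (chromosome 4, 17852893 to 18119145, GRCm38), was at a median of 1.00 RPKM in controls (0.691 to 2.12) and 0.845 RPKM in HLU mice (0.629 to 1.72). It was 1 of 2 members with a negative log2 change, -0.24 (SE 0.24, exact permutation p = 0.315, n = 8 per group), and Control 4 held its highest value. Without Control 4 the change was -0.12.

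The other was Mmp11, a secreted Mmp that is processed by furin inside the cell (chromosome 10, 75923222 to 75936496, GRCm38, minus strand). It ran from 1.98 through a median of 2.73 to 3.33 RPKM in controls and from 1.66 through 2.39 to 2.95 RPKM in HLU mice. Mean levels were 2.69 ± 0.44 RPKM and 2.38 ± 0.37 RPKM (SD, n = 8 for each group) and differed by a log2 change of -0.17 (SE 0.13, exact permutation p = 0.163). Only 1 of 8 HLU mice exceeded the control median, although the ranges overlapped. Mmp11 varied least of the 10 genes within groups, with an SD of 0.23 on the log2 scale against a median of 0.43 over all features. The most variable were Mmp3, Timp4 and Mmp2, with SDs of 1.00, 0.78 and 0.74.

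Of the inhibitors, Timp2 was the most abundant (chromosome 11, 118301069 to 118355740, GRCm38, minus strand). Its lowest, median and highest levels were 49.7, 73.9 and 111 RPKM in controls and 66.2, 98.7 and 130 RPKM in HLU mice. The means of 76.7 ± 25.2 and 95.9 ± 24.5 RPKM (SD, n = 8 each) gave a log2 change of 0.35 (SE 0.21, exact permutation p = 0.129). In 3 HLU mice Timp2 was above the highest control, and in 4 controls it was below the lowest HLU mouse. Timp1, an inducible secreted inhibitor (chromosome X, 20870166 to 20874735, GRCm38), went from a control median of 19.8 RPKM (13.2 to 51.3) to 31.1 RPKM in HLU mice (16.1 to 45.3). Its log2 change was 0.44 (SE 0.29, exact permutation p = 0.181, n = 8 per group), and the control median was exceeded in 6 of 8 HLU mice. Control 5, the control with the most reads outside the listed features, held the highest Timp1 value of all 16 mice, and without it the change was 0.62 and passed the threshold, which 1.5% of all features then passed upward.

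Timp3, which binds to the matrix itself and also inhibits Adam proteases (chromosome 10, 86300372 to 86349506, GRCm38), averaged 49.2 ± 8.09 RPKM in controls (SD, n = 8) and 51.1 ± 14.2 RPKM after unloading (n = 8). The range was 36.9 to 64.3 RPKM in controls, with a median of 47.7, and 37.2 to 75.6 RPKM in HLU mice, with a median of 46.0. The log2 change was 0.03 (SE 0.16, 95% interval -0.30 to 0.36, exact permutation p = 0.870). Timp4 (chromosome 6, 115241892 to 115252205, GRCm38, minus strand) ranged more widely, from 3.58 through a median of 11.2 to 22.0 RPKM in controls and from 3.74 through 12 to 23.1 RPKM in HLU mice. Its log2 change was 0.04 (SE 0.36, 95% interval -0.72 to 0.80, exact permutation p = 0.921, n = 8 per group). The intervals of the other members likewise contained changes of more than 1.2-fold in at least 1 direction.

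Direction and size moved with the fit. When the reads outside the listed features, as a share, entered the fit as a covariate, the log2 change was -0.15 for Mmp2, -0.03 for Mmp14, -0.06 for Timp3 and -0.38 for Timp4. In the same fit Timp1 was at 0.13 and Timp2 at 0.11, against 0.44 and 0.35 without the covariate. With the erythroid and granulocyte scores as covariates, Mmp2 (0.62), Timp1 (0.78) and Timp2 (0.41) passed the unadjusted threshold, with adjusted p-values of 0.194, 0.165 and 0.192 in limma. In that fit 8.83% of all features were called higher and 11.5% lower. Mmp13 then stood at 0.08, Mmp16 at -0.46 and Timp3 at -0.07.

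Mmp13 made up 55.4% ± 12.8 (SD, n = 8) of the summed RPKM of the 10 genes in controls and 57.2% ± 7.86 in HLU mice, between 30.6% in Control 3 and 69.6% in HLU 4. By reads, which favour long transcripts, its share in controls was 44.3%, and Timp3 held 22.3%. Of 10 shares compared, that of Mmp16 was lower in HLU mice, at 0.134% ± 0.042 against 0.195% ± 0.058 in controls (exact permutation test, n = 8 per group, p = 0.028 before any correction for the 10 shares). This share is a ratio to a sum that Mmp13 dominates, and the RPKM of Mmp16 itself did not pass the test above. The next lowest p-values were 0.067 for Mmp11 and 0.084 for Timp3 (exact permutation tests). The sum of the 6 Mmps was 2.89 ± 0.87 times the sum of the 4 Timps in controls and 2.92 ± 0.49 times in HLU mice (SD, n = 8 each). Without Mmp13 the ratio was 0.640 ± 0.115 and 0.649 ± 0.165. Control 3, the mouse with the least Mmp13, had the lowest ratio of all 16 mice, at 1.53. The shares of RPKM and these ratios rest on the gene lengths in the deposited values.

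**Figure D3:**
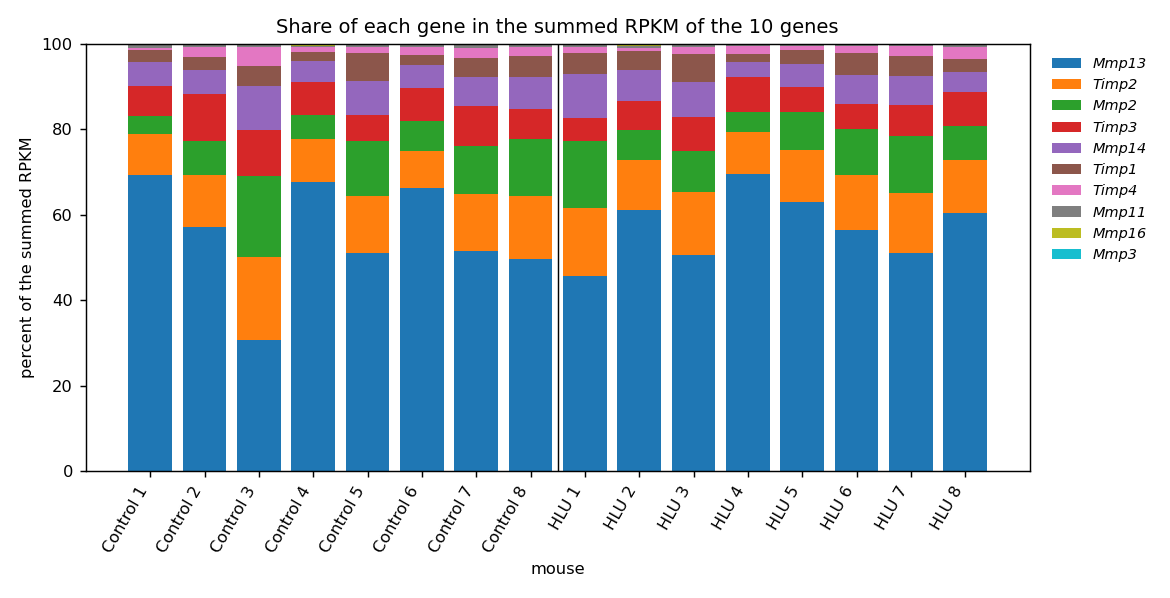
Percent of the summed RPKM of the 10 genes held by each gene, with 1 stacked bar per mouse and a vertical line between controls and HLU mice. Mmp13 takes the largest part of every bar, from 30.6% in Control 3 to 69.6% in HLU 4.

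From mouse to mouse, Mmp2, Mmp14, Timp1 and Timp2 rose and fell together. Correlations were taken over 16 mice on log2 values centred within each group, so that a difference between groups could not produce them, and 45 pairs were tested. The 6 pairs among these 4 genes had Pearson's r of 0.78 to 0.92 (permutation p of 3e-05 to 0.00068, adjusted p of 0.0006 to 0.0051). Spearman's rho was 0.80 to 0.93 (permutation p of 3e-05 to 0.00034). Dropping the 2 mice most distant from the median gave r of 0.73 to 0.91. In controls alone r was 0.84 to 0.95 and in HLU mice alone 0.66 to 0.93. The tightest pairs were Mmp2 with Timp2 (r = 0.92), Mmp2 with its activator Mmp14 (r = 0.90) and Mmp14 with Timp1 (r = 0.89). Differences between these r were not tested.

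The covariation was also compared with the gap in Mmp2, which left 7 mice above it and 9 below. The 7 mice held the 7 highest values of Mmp2, Mmp14 and Timp2 and 6 of the 7 highest of Timp1. Timp2 was 95.8 to 130 RPKM in them and 49.7 to 89.1 RPKM in the other 9. Within the 7 mice r for the 6 pairs fell to between 0.02 and 0.67, and within the 9 mice it was between 0.26 and 0.76. The gap was noticed in these data and was defined by Mmp2 itself, which narrows the range on each side, so these values are given without a test.

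For Mmp13 r was 0.01 to Mmp2 and 0.09 to Mmp14. For Mmp3 the r over all 16 mice covered values of opposite sign in the groups, except with Mmp11 and Timp4. With Mmp11 it was 0.18 in controls and 0.04 in HLU mice, and with Timp4 -0.07 and -0.66. Mmp3 with Mmp13, its neighbour on chromosome 9, had r of 0.26 over all mice, 0.67 in controls and -0.43 in HLU mice. With Mmp14 it was 0.64 in controls and -0.33 in HLU mice, and with Timp2 0.54 and -0.69. The difference between the groups was not tested, and Mmp3 rests on few reads. The remaining pair past an adjusted p of 0.05 was Timp3 with Timp4 (r = 0.67, permutation p = 0.0065, adjusted p = 0.042, rho = 0.64 with permutation p = 0.017). When the 2 mice most distant from the median were dropped, r was 0.57. The lowest r of the 45 pairs was -0.50, between Mmp11 and Timp3, and the median was 0.23.

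**Figure D4:**
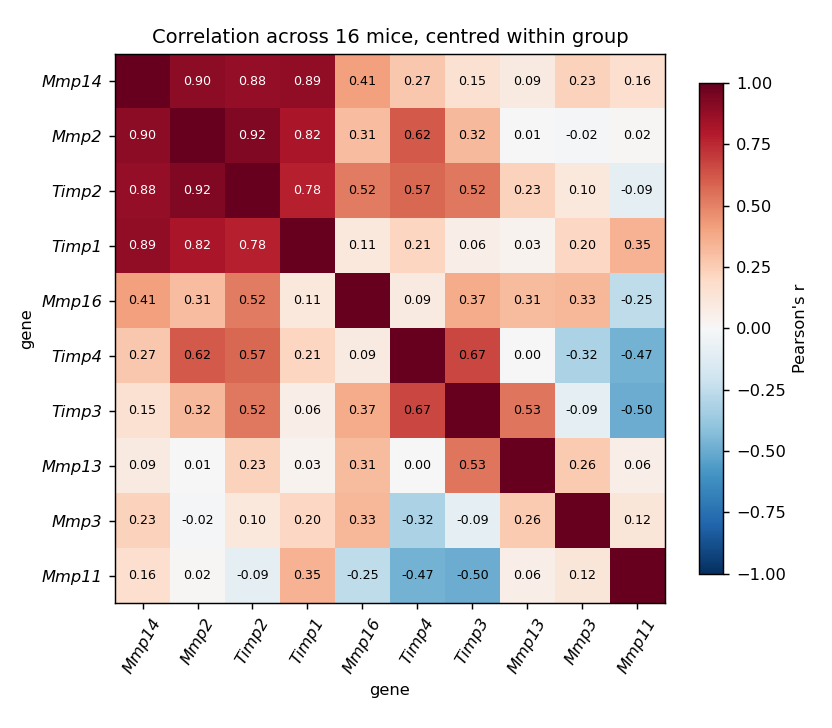
Pearson's r between each pair of the 10 genes over 16 mice, on log2 values centred within group, with genes ordered so that those that moved together are adjacent. The 6 pairs among Mmp14, Mmp2, Timp2 and Timp1 lie between 0.78 and 0.92, and Mmp13 lies at 0.23 or below with each of these 4 genes.

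The covarying genes also moved with markers of tissues that a cortical sample can hold. A marker score is the mean log2 level of the genes of a list, and 130 relations between members and scores or library measures were tested. The cartilage score (Col2a1, Comp and Acan, the 3 of 7 markers past the filter) had r of 0.94 to Mmp14 and 0.92 to Mmp2 (adjusted p = 0.0013 for each, permutation test), 0.84 to Timp1 and 0.83 to Timp2. Summed cartilage markers were low, at 11.0 to 37.6 RPKM in controls and 8.12 to 34.5 RPKM in HLU mice, with Matn1 and Col10a1 at 0 in some mice. The osteoblast score had r of 0.85 to Mmp14, 0.81 to Mmp2, 0.77 to Timp2 and 0.66 to Timp1 (adjusted p of 0.0044, 0.0062, 0.013 and 0.038, permutation tests). Its 7 markers summed to 814 to 1892 RPKM in controls and 960 to 2405 RPKM in HLU mice, and none was at 0. The same 4 genes rose with the share of unlisted reads, with r of 0.77 for Mmp2, 0.68 for Timp2, 0.64 for Mmp14 and 0.62 for Timp1 (adjusted p of 0.0073, 0.028, 0.040 and 0.043, permutation tests). The 4 mice with the highest shares outside the listed features were among the 6 highest for each of the 4 genes. With that share removed from the values, the 6 pairs kept r of 0.62 to 0.86, and with the erythroid and granulocyte scores removed, 0.74 to 0.89. Other scores moved with these genes too. Adipocyte markers had r of 0.67 to 0.81 and endothelial markers of 0.59 to 0.67 with all 4 genes, each at an adjusted p under 0.05 (permutation tests). The periosteum and tendon score had r of 0.84 to Timp2, 0.82 to Mmp2 and 0.67 to Mmp14, and the osteocyte score had r of 0.78 to Timp2 and 0.74 to Mmp2, again at an adjusted p under 0.05. The osteoclast score had r of 0.72 to Mmp14 and 0.66 to Timp2 (adjusted p of 0.017 and 0.031, permutation tests). To Timp1 and Mmp2 its r was 0.58 and 0.56 (adjusted p of 0.069 and 0.078, permutation tests). The granulocyte score ran against Timp2 (r = -0.71, adjusted p = 0.0097) and Mmp2 (r = -0.63, adjusted p = 0.033, permutation tests). The part of tissue composition in the covariation was not tested beyond these values.

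Timp3 and Timp4 shared some of these relations. Like Timp2 and Mmp2, both fell as the granulocyte score rose (r = -0.70 and -0.71, adjusted p = 0.039 and 0.015, permutation tests). Both also fell as the macrophage score rose (r = -0.67 for each, adjusted p = 0.043 and 0.030, permutation tests). For Timp2 and Mmp2 the r to the macrophage score was -0.32 and -0.26, not past an adjusted p of 0.05. Both rose with the periosteum and tendon score (r = 0.68 and 0.77, adjusted p = 0.030 and 0.0079, permutation tests), which rests on Postn, Aspn, Ogn, Tnmd, Scx, Thbs4 and Fmod. In controls alone the macrophage relation was weaker, with r of -0.23 for Timp3 and -0.33 for Timp4. Timp4 and Mmp16 rose with the osteocyte score (r = 0.71 and 0.64, adjusted p = 0.018 and 0.044, permutation tests). By rank the relation of Timp4 was weaker, with Spearman's rho of 0.47 (permutation p = 0.069), and that of Mmp16 had rho of 0.62 (permutation p = 0.019). Mmp11 rose with the erythroid score (r = 0.61, adjusted p = 0.043, permutation test), and r was 0.47 when the 2 most distant mice were dropped. The erythroid score was lower in HLU mice by 0.60 on the log2 scale (exact permutation p = 0.063, n = 8 per group). The fitted level of Mmp11 was also lower but did not pass the threshold. With the erythroid and granulocyte scores as covariates the log2 change of Mmp11 was -0.04 (limma) in place of -0.17. Both scores entered that fit, and the part of either in the change of Mmp11 was not tested. Mmp13 and Mmp3 had no relation past an adjusted p of 0.05 with any score.

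**Figure D5:**
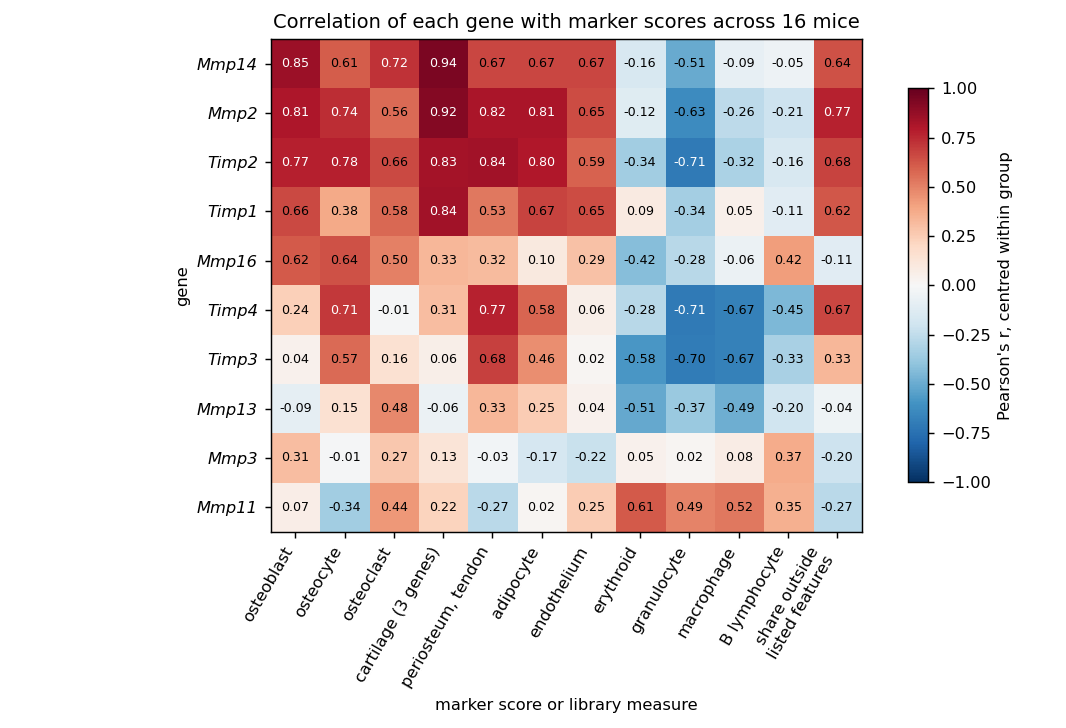
Pearson's r of each gene with 11 marker scores and with the share of unlisted reads, over 16 mice and centred within group. Mmp14, Mmp2, Timp2 and Timp1 have r of 0.83 to 0.94 with the cartilage score, while Mmp13 has -0.06.

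The features that followed each member most closely were ranked by r among those with a unique symbol and a mean of at least 2 RPKM, as a description over 16 mice. Mmp2 was followed by Boc (r = 0.98), Mxra8 and Aebp1, and Timp2 by Copz2 (0.97), Ptgfrn and Htra1. Timp1 was followed by Col6a1 (0.96) and Col6a2 (0.95), chains of type VI collagen, and by Micall1. Mmp14 was followed by C1qtnf6 (0.96), by Serpinh1 (0.94), the collagen chaperone, and by Maged1. Mmp13 was nearest to Gm14305 (0.85), Mfsd7b and Spp1 (0.82), which encodes osteopontin and averaged 505 RPKM. Mmp16 went with Plod2 (0.95), a collagen lysyl hydroxylase, Sema6d and Gpx8. Timp4 went with Angptl7 (0.94), Ly6a and Gm10221, and Mmp11 with Ccdc69 (0.81), Nrde2 and Trp53. The closest feature to Mmp3, Cplx2, reached only 0.75.

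For Timp3 the closest feature was Syn3 (r = 0.98), the gene in which it lies. Timp1, Timp3 and Timp4 each lie inside a synapsin gene, Syn1, Syn3 and Syn2, on the opposite strand in the GRCm38 annotation. Syn1 and Syn2 averaged 0.312 and 0.254 RPKM, while Syn3 averaged 22.2 RPKM. Timp3 and Syn3 share 1733 exon bases, and the reads listed on Syn3 were between 0.610 and 0.711 times those on Timp3 in all 16 mice. Whether the reads were counted by strand is not given in the sources used here, so reads of Timp3 and of Syn3 cannot be told apart where they overlap. Mmp11 likewise shares 155 exon bases with Chchd10, which was not analysed here.

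Of 17 other Mmp genes, 9 passed the filter and 0 were called in either direction (1.11% higher and 4.76% lower over all features), with a median log2 change of -0.01. Mmp8 was at 225 ± 81.9 RPKM in controls and 212 ± 119 RPKM in HLU mice, and Mmp9, the other gelatinase, at 136 ± 37.8 and 133 ± 24.1 RPKM (SD, n = 8 each). Their log2 changes were -0.19 (SE 0.32) and -0.01 (SE 0.16). Mmp8 had r of 0.82 with the granulocyte score (adjusted p = 0.0048 over 117 relations, permutation test) and of -0.90 with the share of unlisted reads. Mmp25, a membrane-anchored Mmp of leukocytes, had r of 0.94 with the granulocyte score, and Mmp9 had r of 0.86 with the osteoclast score (adjusted p = 0.0018, permutation test). For Mmp2, Mmp13 and Mmp14 the r to the granulocyte score was -0.63, -0.37 and -0.51, and a difference between these values was not tested. The other 6, Mmp15, Mmp19, Mmp23, Mmp24, Mmp27 and Mmp28, averaged 0.517 to 6.56 RPKM, and their log2 changes ran from -0.36 (Mmp27) to 0.39 (Mmp15).

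Genes that act on or beside the members were taken from fixed lists. Of 13 genes of proenzyme activation, inhibition and clearance, such as Furin, Plau, Plat, Reck and Lrp1, 13 were tested and 0 were called, with a median log2 change of 0.06. Of 16 Adam, Adamts and astacin proteases 15 were tested and 0 called, with a median of -0.00. All 12 matrix substrates were tested and 0 called (median 0.03), among them Col1a1 and Col2a1, which are also in the osteoblast and cartilage scores. Of 15 transcription factors known to act on Mmp promoters 11 were tested and 0 called (median -0.03). After median-of-ratios rescaling, where 2.24% of all features were called higher, 1 gene each of 3 lists passed in limma. These were Plat, which encodes tissue plasminogen activator (log2 change 0.66), Dcn, the proteoglycan decorin (0.61), and Ets2 (0.31), each with an adjusted p of 0.903 in limma. They are named because they passed.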

How the data were processed

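Femoral cortical bone RNA of 8 control and 8 HLU mice was examined, 1 library per mouse, with groups and numbers taken from the sample labels. The authors sequenced TruSeq v2 libraries on a HiSeq, with 8 libraries in a lane, and deposited RPKM values for 36829 features. The submitters' processing notes name TopHat2, DESeq2 and mm9, while the counting tool, annotation and gene lengths are not given in the sources used here. Members and gene lists were chosen with earlier results of these data known. The study put several members on a targeted panel that was chosen partly from these samples. On that panel, another measure than the sequencing used here, the study reported Mmp3, Mmp13 and Timp1 as higher in HLU mice. Mmp2, Mmp14 and Timp2 were on the panel and were not among its changed genes.

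The 16973 features whose mean reached 0.5 RPKM were log2 transformed after adding 0.1 and compared by limma (version 3.58.1, R 4.3.3) with a variance trend and Benjamini-Hochberg adjustment, so that changes of low genes such as Mmp3 are understated. A call needed at least 1.2-fold together with p under 0.05 before adjustment or under 0.1 after it. Single values were compared by exact permutation, two-sided, over all 12870 splits, whose smallest p is 0.000155. Correlations used 100000 permutations of mice within groups, whose smallest p is 1e-05, and were run with pandas 2.3.3, scipy 1.17.1 and numpy 2.4.6 under Python 3.11.15. Figures used matplotlib 3.10.9. To recover reads, a divisor was sought per library and a length per feature such that every value became a whole number, which worked for 16973 of 16973 features kept. Divisors ranged from 7067512 to 21363584. A count of 0 allows up to 3 reads, a limit that covers counting error only, since reads of 1 library are not independent molecules.

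The text names all 10 members, other Mmp genes with a mean of at least 0.5 RPKM, called genes of the other lists and the 3 features nearest to each member. Positions are from the GRCm38 annotation and windows from RefSeq on GRCm38.p6, since no mm9 genome was used here, and the files carry no coordinates. The muscle markers and protein sequences were not analysed here. The alternatives were other pseudocounts, filters, scalings, covariates, a replicate block, voom on recovered reads, and leaving out libraries.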

Additional observations from a re-analysis of the deposited data

Results flagged for a closer look

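In 20 checks, 1 for each of the 10 genes in each group, a library stood apart from the other 7 of its group in 2, where chance alone gives about 1 in 20. Mmp11 in HLU 4 was 1.66 RPKM, below the other HLU mice, and on the log2(RPKM + 0.1) scale, on which the checks were made, its distance to the nearest of them was 0.530 of the range of the group (0.462 on the RPKM scale, too little to stand apart). HLU 4 also had the highest Mmp13 and Timp3 of all 16 mice and the lowest erythroid score, at -1.25. Timp4 in Control 1 was 3.58 RPKM, with a distance to the nearest control of 0.552 of the range on the log2 scale (0.338 on the RPKM scale, again too little). Control 1 had the lowest share of reads outside the listed features, 6.75%, and the lowest periosteum and tendon score, -1.43. The part of these measures in the values was not tested.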

How the results depend on the processing

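The count of 0 members called was 1 with the replicate block, 3 with the erythroid and granulocyte scores as covariates, and 0 to 1 when each mouse was left out. The member called with the replicate block was Mmp13 (0.36, adjusted p = 0.725 in limma). In that fit 199 of all 16973 features were called higher and 840 lower. The sample labels do not say whether same-numbered mice were paired, and pairing was not tested. Same-numbered mice deviated from their group means with correlations of -0.17 to 0.51, 3 of 8 over 0.1. Of 8 controls, 1 was closest to its own number. Features called higher (188) were 391 with no filter, 106 at a minimum mean of 2 RPKM, 381 with median-of-ratios rescaling, 460 with quantile normalization, 1499 with the marker scores as covariates, 108 without the 2 smallest libraries, 79 without the 4 libraries with the highest share outside the listed features (chosen after seeing the data), and 117 to 363 leaving out each mouse. Features called lower (808) were 394, 364 and 1944 under median-of-ratios, quantile and marker scores, 214 without those 4 libraries, and 471 to 1385 leaving out each mouse. At an adjusted p of 0.1, 1 feature passed with no filter, with no variance trend and with the share outside as a covariate, 23 with the marker scores, and 0 to 1 leaving out each mouse.

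The share outside as a covariate turned Mmp2 (-0.15), Mmp14 (-0.034), Timp3 (-0.057) and Timp4 (-0.38). Timp3 was -0.067 with the marker scores, -0.0020 without the 2 smallest libraries and -0.061 to 0.085 leaving out each mouse, and Timp4 was -0.19 without the 4 libraries and -0.19 to 0.26 leaving out each mouse. The cause was not tested. Mmp3 and Mmp16 have no value at a minimum mean of 2 RPKM. Against 7 correlated pairs in all mice, 6 passed in controls alone and 0 in HLU mice alone, with 8 mice in each, and the cause was not tested. Mmp13, Mmp11, Mmp16, Mmp3, Timp1 and Timp2 kept their sign in every alternative run, but not their size. Leaving out each mouse gave 0.20 to 0.48 for Mmp13, -0.36 to -0.12 for Mmp16, 0.11 to 0.43 for Mmp2, 0.50 to 1.02 for Mmp3, 0.13 to 0.34 for Mmp14, -0.23 to -0.10 for Mmp11, 0.34 to 0.62 for Timp1 and 0.27 to 0.44 for Timp2. Mmp3 was 0.28 with a pseudocount of 1 and 1.28 with 0.01. The fewest reads on a member were those of Mmp3, at most 55 per mouse.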
